A study of Rattus norvegicus with 6 samples.

Results

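Collagen leaves the cell only after its chains have been hydroxylated, folded and checked, and it gains its strength after secretion. The genes described here are 10 that carry out those steps: the collagen chaperone Serpinh1, the prolyl 4-hydroxylase subunits P4ha1 and P4ha2, the lysyl hydroxylases Plod1, Plod2 and Plod3, the procollagen proteinase Bmp1 with its enhancer Pcolce, and the lysyl oxidases Lox and Loxl2. They were selected by gene symbol from the 31038 rows of each count file, and all 10 were among the 12724 genes tested. The selection rule used no measured values, but earlier results of these data were known when the genes were chosen. The libraries were made from rat cells labelled NRVM, taken from the embryonic rat heart and kept in medium with serum; the labels' protocols also name dexamethasone, isobutylmethylxanthine and insulin as additions, without saying to which samples. All cells had received an siRNA. In 3 libraries it was a control siRNA and in 3 an siRNA against eIF3m, a subunit of translation initiation factor 3; the sources used here do not give the siRNA sequences, the time after transfection or the strain. The comparison asks how transcript levels differ when eIF3m is knocked down. Nothing in the labels says that replicates were separate cultures, so p-values reflect only how far these libraries vary, a spread that could be technical.

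In the endoplasmic reticulum (ER), prolyl 4-hydroxylases give procollagen the hydroxyproline that keeps its triple helix stable at body temperature, and lysyl hydroxylases prepare lysines for sugar attachment and later crosslinks. The chaperone HSP47, product of Serpinh1, binds the folded helix and travels with it to the Golgi. Outside the cell, BMP1 cuts off the carboxyl-terminal propeptide, PCOLCE speeds that cut, and lysyl oxidases start the covalent crosslinks between collagen molecules. In the heart these steps are carried out mainly by fibroblasts and other mesenchymal cells.

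Total counts ranged from 7437285 to 8603602 in control libraries and from 2156186 to 10061575 in eIF3m libraries, the smallest being eIF3m replicate 2. Levels are given as CPM, counts per 1000000 of the library total after TMM scaling (a correction for differences in library composition). Values of the 3 libraries of a group are listed in the order of replicates 1, 2 and 3. The knockdown was partial: Eif3m stood at 138, 136 and 141 CPM in controls and at 92.0, 84.1 and 87.6 CPM in eIF3m libraries, with no overlap (log2 fold change -0.64 ± 0.05 SE, edgeR adjusted p = 1.41e-07). Most defining markers of cardiomyocytes, the cell type that the label stands for, were at or near 0. Of 12 listed, Tnnt2, Ttn and Pln passed the filter on low counts, at mean levels of 366, 23.7 and 25.1 CPM in controls, and all 3 fell; Myl3 had 0 counts in every library, Myh7 and Myl2 had at most 3 counts in each control library, and Myh6 lay at 0.640 to 0.851 CPM in controls. Of 9 fibroblast markers 7 were tested; Col1a1, Col3a1, Postn, Dcn and Lum were higher and Thy1 and Ddr2 lower. Dcn, Lum, Pdgfra and Tcf21 were also near 0 in controls, at 1.09, 0.66, 0.46 and 0 CPM on average. In eIF3m replicates 1, 2 and 3 Dcn stood at 55.5, 2.21 and 1.80 CPM and Lum at 10.3, 3.98 and 2.89 CPM. Pdgfra, which was not tested, stood at 8.79, 0.443 and 1.44 CPM. Each of these was highest in eIF3m replicate 1. The 12 cardiomyocyte markers summed to 412 to 425 CPM in controls and 156 to 178 CPM in eIF3m libraries. Most of that sum was Tnnt2, with means of 366 and 152 CPM. The 9 skeletal myoblast markers summed to 57.5 to 62.7 CPM in controls and 31.5 to 38.1 CPM in eIF3m libraries. Of these 5 were tested, and 4 fell. Myog went from a mean of 19.3 CPM in controls to 5.58 CPM in eIF3m libraries. Myod1 was not called, with a mean of 16.0 CPM in each group. Smooth muscle markers (6 genes) summed to 5223 to 5363 CPM in controls and 3477 to 3651 CPM in eIF3m libraries. The 9 fibroblast markers summed to 15360 to 15540 CPM in controls and 16570 to 17170 CPM in eIF3m libraries, and without Col1a1 and Col3a1 to 1459 to 1486 and 1274 to 1308 CPM. In bulk RNA, fewer cells of a type and less RNA per cell cannot be told apart, and the part of these markers in the results below was not tested. The library eIF3m replicate 1 stood apart: blood markers summed to 6224 CPM in eIF3m replicate 1, against 230 and 51.8 CPM in eIF3m replicates 2 and 3 and 32.9 to 78.2 CPM in controls, and endothelial markers to 175 against 22.6 and 13.5 CPM and 8.9 to 15.5 CPM. The counts of called genes without that library are given beside the results.

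Promoter sequence is shown for Serpinh1, P4ha1, P4ha2 and Plod2, since the first is a textbook target of the heat shock factor and the others of the hypoxia-inducible factor. RefSeq entries were matched by symbol or gene identifier for 7 of the 10 genes (not Bmp1, Lox and Loxl2), and the first match of each gene was used. Each line gives the 250 bases before the annotated start, 5′ to 3′ along the gene, from assembly GRCr8, which is not the rn6 build of the counts. The Serpinh1 window is chr1:163062977-163063226 on the minus strand, and capitals mark a heat shock element, TTC, GAA and TTC in a row with 2 bases between neighbours, on either strand. The P4ha1 window is chr20:27844796-27845045, the P4ha2 window chr10:38743644-38743893 and the Plod2 window chr8:101964068-101964317, all on the plus strand, and capitals there mark the core of the hypoxia response element, ACGTG or GCGTG on either strand.
Serpinh1: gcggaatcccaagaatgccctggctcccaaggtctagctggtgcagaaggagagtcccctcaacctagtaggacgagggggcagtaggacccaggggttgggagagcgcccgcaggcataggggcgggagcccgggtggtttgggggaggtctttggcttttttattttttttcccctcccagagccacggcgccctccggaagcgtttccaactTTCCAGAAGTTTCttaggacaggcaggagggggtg
P4ha1: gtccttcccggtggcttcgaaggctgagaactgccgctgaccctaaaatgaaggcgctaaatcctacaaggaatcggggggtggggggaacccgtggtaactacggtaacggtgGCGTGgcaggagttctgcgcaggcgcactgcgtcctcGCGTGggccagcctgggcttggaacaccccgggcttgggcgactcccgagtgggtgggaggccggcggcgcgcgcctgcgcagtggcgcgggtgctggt
P4ha2: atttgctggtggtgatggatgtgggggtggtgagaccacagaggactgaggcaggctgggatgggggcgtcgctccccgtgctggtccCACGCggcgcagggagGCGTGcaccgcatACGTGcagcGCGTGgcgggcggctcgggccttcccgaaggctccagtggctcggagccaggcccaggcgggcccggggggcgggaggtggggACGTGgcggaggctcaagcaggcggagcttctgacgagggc
Plod2: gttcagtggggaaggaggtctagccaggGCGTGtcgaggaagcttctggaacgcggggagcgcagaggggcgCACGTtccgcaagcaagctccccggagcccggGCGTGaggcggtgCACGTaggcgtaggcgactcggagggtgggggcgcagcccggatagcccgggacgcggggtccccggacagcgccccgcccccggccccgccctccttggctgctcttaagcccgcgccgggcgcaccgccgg

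The heat shock element of Serpinh1 lay at bases -35 to -23 from the start. Such a match was found in 0.663% of 33469 promoters, and among the 7 genes also in Plod2, at bases -212 to -200. Hypoxia cores were more common, with at least 1 in 36.7% of promoters. P4ha2 had 5, Plod2 had 4, P4ha1 had 2, Plod1, Plod3 and Pcolce had 1 each, and Serpinh1 had 0. The ER stress element, CCAAT and CCACG spaced by 9 bases on either strand, was in 0.0657% of promoters and in 0 of the 7. These matches describe the letters of the windows alone.

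Transcripts of 7 of the 10 genes fell with the knockdown, 0 rose and 3 were not called. The 7 were Serpinh1, P4ha2, Plod1, Plod2, Plod3, Pcolce and Lox, with changes from -13.5% for Lox to -48.8% for Plod3. P4ha1, Bmp1 and Loxl2 were not called. Across all genes tested, 38.7% were called (17.4% higher and 21.2% lower) by edgeR's quasi-likelihood test at an adjusted p under 0.05, so 7 of 10 lower stands beside a background of 21.2%. The 10 were chosen with earlier results of these data known, so that comparison describes them and tests nothing. The median log2 fold change of the 10 was -0.43, and that of all genes tested 0.01. Groups did not overlap in CPM for 8 of the 10, against 48.6% of all genes tested. Without eIF3m replicate 1 the counts were again 0 higher and 7 lower, and the log2 fold changes were -0.47 for Serpinh1, -0.40 for P4ha2, -0.61 for Plod1, -0.41 for Plod2, -0.97 for Plod3, -0.82 for Pcolce and -0.15 for Lox. The counts of higher genes depend on scaling. With no scaling factors 3 of the 10 were higher and 6 lower, and with upper-quartile factors 1 was higher and 6 lower; over all genes 4163 were then higher and 1680 lower, and 3015 and 2130, against 2220 and 2700 with TMM. With no scaling factors the median of all genes was 0.16, so a fold change there reads against that shift.

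**Figure D1:**
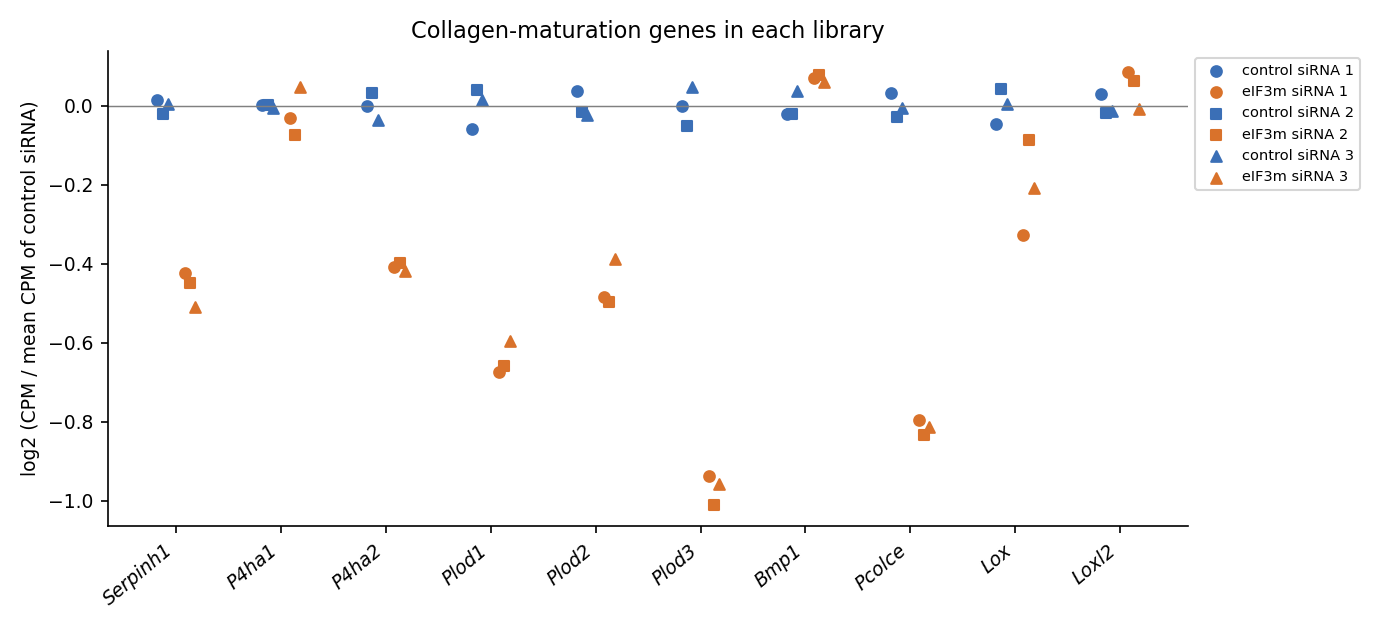
Level of each of the 10 genes in each library, as log2 of its CPM over the mean CPM of the 3 control siRNA libraries; blue is control siRNA, orange is eIF3m siRNA, and the marker shape gives the replicate number. All 3 eIF3m libraries lie below all 3 controls for 7 genes, and above them for Bmp1. For P4ha1 they lie on both sides of the controls, and for Loxl2 1 lies among the controls and the rest above.

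Serpinh1, the collagen-specific chaperone, had levels of 6328, 6166 and 6282 CPM in controls. In eIF3m libraries it stood at 4667, 4585 and 4400 CPM. Each eIF3m library lay well below each control library. Mean ± SD over 3 libraries was 6259 ± 83.6 CPM in controls and 4550 ± 137 CPM after knockdown. By edgeR the log2 fold change was -0.46 ± 0.02 SE, or -27.3% (adjusted p = 1.05e-11). The 5 genes whose profile over the 6 libraries was nearest to that of Serpinh1, among 10486 with a mean of at least 5 CPM, were Prkcsh, Fkbp9, Man2b1, Tnfrsf12a and Col4a2. Their root mean square distances from Serpinh1 ran from 0.013 to 0.023 on the centred log2 scale. Prkcsh encodes the beta subunit of ER glucosidase II, Fkbp9 an ER prolyl isomerase, Man2b1 a lysosomal mannosidase, Tnfrsf12a the receptor of the cytokine TWEAK, and Col4a2 a basement membrane collagen chain. This likeness is a description over 6 libraries.

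The catalytic subunits of prolyl 4-hydroxylase differed from each other. P4ha1 was at 458, 458 and 455 CPM in controls and at 447, 434 and 472 CPM in eIF3m libraries. The eIF3m values spread around the controls, with replicate 3 above them and the others below. Its log2 fold change was -0.02 ± 0.04 SE (95% interval -0.10 to 0.07, edgeR adjusted p = 0.77), a value that turned to 0.13 with no scaling factors (edgeR adjusted p = 0.0176). P4ha2 stood at 329, 337 and 321 CPM in controls and at 248, 250 and 246 CPM in eIF3m libraries, with no overlap. It fell by 0.41 on the log2 scale (± 0.04 SE, edgeR adjusted p = 3.06e-06), from a mean of 329 ± 7.72 to 248 ± 1.86 CPM. Within each library, reads of P4ha1 per read of P4ha2 numbered 1.39, 1.36 and 1.42 in controls and 1.80, 1.74 and 1.92 in eIF3m libraries. This ratio needs no scaling factor. It was 1.31-fold higher after knockdown, and the groups did not overlap (exact two-sided permutation test, p = 0.1, the smallest that 3 against 3 libraries can give).

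All 3 lysyl hydroxylases fell, and Plod3 had the lowest log2 fold change of the 10 genes. Its product also attaches sugars to hydroxylysine. Plod3 was at 377, 364 and 390 CPM in controls and at 197, 187 and 194 CPM after knockdown. The eIF3m libraries sat close together at about the same distance below the controls. The mean went from 377 ± 12.9 to 193 ± 4.96 CPM (log2 fold change -0.97 ± 0.05 SE, edgeR adjusted p = 4.99e-10), a value at percentile 1.83 of the fold changes of all genes tested. Plod1, which modifies lysines in the helical part of the chain, stood at 377, 403 and 396 CPM in controls and at 246, 248 and 259 CPM in eIF3m libraries. The groups did not overlap, and it fell by 0.64 on the log2 scale (± 0.05 SE, edgeR adjusted p = 3.06e-08). Plod2, the hydroxylase of the telopeptides from which stable crosslinks are made, was at 188, 182 and 181 CPM in controls and at 131, 130 and 140 CPM in eIF3m libraries. It too was lower in each eIF3m library than in each control (log2 fold change -0.45 ± 0.05 SE, edgeR adjusted p = 4.19e-06). Reads of Plod2 per read of Plod1 numbered 0.500, 0.451 and 0.456 in controls and 0.534, 0.524 and 0.541 in eIF3m libraries, 1.14-fold higher with no overlap (exact two-sided permutation p = 0.1, the smallest possible).

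For propeptide removal, the enhancer fell while the proteinase was not called. Pcolce stood at 3337, 3198 and 3254 CPM in controls and at 1879, 1831 and 1857 CPM in eIF3m libraries. Values within each group lay close together and far from the other group. The group means were 3263 ± 70.2 and 1855 ± 23.8 CPM, and the log2 fold change was -0.81 ± 0.02 SE, or -43.1% (edgeR adjusted p = 2.03e-14, the lowest of the 10). Bmp1, the proteinase itself, was at 413, 413 and 430 CPM in controls and at 440, 443 and 437 CPM in eIF3m libraries. Every eIF3m value lay above every control value, but by little: the log2 fold change was 0.07 ± 0.04 SE (95% interval -0.01 to 0.15, edgeR adjusted p = 0.162). With upper-quartile factors it was 0.14 (edgeR adjusted p = 0.00873) and with no scaling factors 0.22 (edgeR adjusted p = 0.000295), and Bmp1 then counted as higher.

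Of the lysyl oxidases, Lox fell slightly and Loxl2 was not called. Lox had 341, 363 and 354 CPM in controls. The eIF3m libraries gave 281, 332 and 305 CPM, the widest relative spread of the 10 genes within a group. The lowest value was in eIF3m replicate 1, where blood markers were highest (6224 CPM), and the highest was in eIF3m replicate 2. Whether blood markers bear on the spread of Lox was not tested. The mean went from 353 ± 10.9 to 306 ± 25.5 CPM (log2 fold change -0.21 ± 0.06 SE, edgeR adjusted p = 0.00755). Without eIF3m replicate 1 it was -0.15 (edgeR adjusted p = 0.0118). The call was lost with upper-quartile factors (-0.14, edgeR adjusted p = 0.054), with no scaling factors (-0.06, edgeR adjusted p = 0.383) and with libraries thinned to the smallest total (-0.12, edgeR adjusted p = 0.191). Loxl2, which oxidises collagen IV among other substrates, was at 99.6, 96.4 and 96.6 CPM in controls and at 103, 102 and 96.9 CPM in eIF3m libraries. The groups overlapped, and the log2 fold change was 0.05 ± 0.05 SE (95% interval -0.07 to 0.16, edgeR adjusted p = 0.522). With no scaling factors it was 0.19 and counted as higher (edgeR adjusted p = 0.00666).

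**Figure D2:**
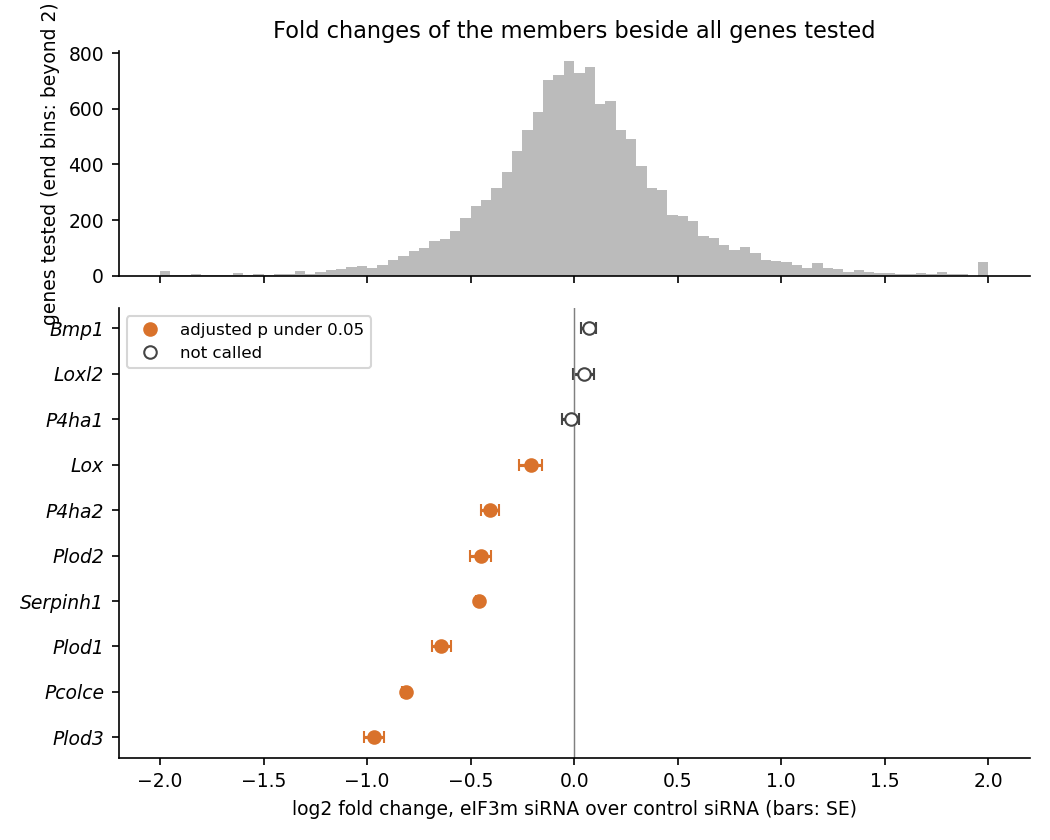
Upper panel: histogram of log2 fold changes, eIF3m siRNA over control siRNA, of the 12724 genes tested, with the 60 beyond 2 in either direction placed in the end bins. Lower panel: the 10 genes on the same axis with SE bars, filled where the adjusted p was under 0.05; 7 lie below 0, from -0.21 for Lox to -0.97 for Plod3, and 3 lie near 0.

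Collagen chains, the substrates of these enzymes, moved in both directions. Col1a1, a chain of type I collagen, rose from 12050 ± 92.3 to 13270 ± 177 CPM (log2 fold change 0.14 ± 0.01 SE, edgeR adjusted p = 2.24e-09), and Col3a1, the type III chain, from 1929 ± 28.7 to 2329 ± 158 CPM (0.27 ± 0.03 SE, edgeR adjusted p = 1.06e-05). The other type I chain, Col1a2, was at 452, 851 and 444 CPM in controls and at 598, 346 and 441 CPM in eIF3m libraries, with control replicate 2 above the rest. Its groups overlapped widely and it was not called (-0.33 ± 0.21 SE, edgeR adjusted p = 0.234). Without control replicate 2 its log2 fold change was 0.05 (edgeR adjusted p = 0.855). Without eIF3m replicate 1 it was -0.53 and called (edgeR adjusted p = 0.0304). It was also called with no filter (-0.34, edgeR adjusted p = 2.1e-15), despite the overlap. The fit with no filter also took the edgeR adjusted p of Serpinh1 from 1.05e-11 to 6.86e-243, so this call of Col1a2 carries little weight. Among fibrillar chains, 4 rose and 3 fell of 10 tested, with a median log2 fold change of -0.15. Col5a3 and Col27a1 rose by 0.72 and 0.72 on the log2 scale; Col5a1, Col5a2 and Col11a1 fell by 0.28, 0.28 and 0.30. The type IV chains Col4a1, Col4a2 and Col4a5, which form basement membranes, fell by 0.48, 0.43 and 0.32, all 3 of the 3 tested. Over all genes tested, 17.4% were called higher and 21.2% lower. Without eIF3m replicate 1 the counts of fibrillar chains were 4 higher and 4 lower, with Col1a2 added. Each of the chains named here as risen or fallen kept its direction and its call under every alternative in which it was tested.

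Chaperone and oxidase reads were also set against type I collagen reads (Col1a1 and Col1a2 summed) in the same library. Most of that sum was Col1a1, the chain that rose. Controls held 85407, 94508 and 96932 counts of Col1a1 against 3187, 6654 and 3603 of Col1a2. The eIF3m libraries held 139897, 30184 and 108607 against 6254, 781 and 3666. Reads of Serpinh1 per type I collagen read numbered 0.504, 0.476 and 0.507 in controls, against 0.334, 0.334 and 0.326 in eIF3m libraries. The ratio in eIF3m libraries was 0.669 of that in controls, with narrow ranges that did not overlap (exact two-sided permutation p = 0.1, the smallest possible). For Lox the ratio went from 0.0279 ± 0.0007 to 0.0223 ± 0.0021 (SD, n = 3 per group; exact two-sided permutation p = 0.1), 0.797 of the control ratio, again without overlap. All 4 ratios computed (P4ha1 to P4ha2, Plod2 to Plod1, and these) had an adjusted p of 0.1, exact permutation with Benjamini-Hochberg adjustment, and in a design of this size none can go lower. A ratio within a library compares genes in the same sample and needs no scaling factor, but none of the 4 had a p under 0.05.

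**Figure D3:**
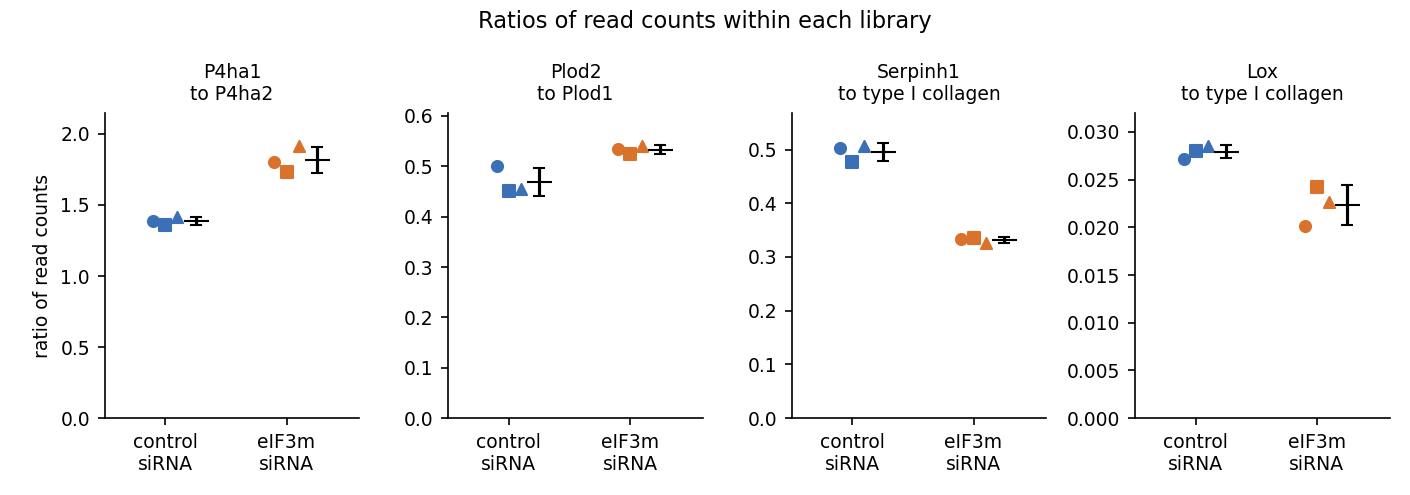
Ratios of read counts within each library for the 4 gene pairs, with control siRNA in blue and eIF3m siRNA in orange, the marker shape giving the replicate number, and black bars showing mean ± SD of 3 libraries. P4ha1 to P4ha2 rises from 1.36 to 1.42 in controls to 1.74 to 1.92, and Serpinh1 to type I collagen drops from 0.476 to 0.507 to 0.326 to 0.334, with no overlap in any panel.

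Other genes of collagen maturation, 32 in a list chosen by function with earlier results of these data known, were also mostly lower. Of 30 found in the files 25 were tested. Among these 3 rose, 18 fell and 4 were not called, beside 17.4% higher and 21.2% lower over all genes tested. Their median log2 fold change was -0.42, beside 0.01 for all genes. The number lower was 14 with no scaling factors, 16 with upper-quartile factors and 16 without eIF3m replicate 1, where 3 were higher. In proline modification, P4hb, the subunit that pairs with P4ha1 or P4ha2 and is also protein disulphide isomerase, fell from 2049 ± 36.1 to 1104 ± 32.0 CPM (-0.89 ± 0.02 SE, edgeR adjusted p = 2.52e-13). P3h1, P3h3 and P3h4, of the prolyl 3-hydroxylase family, fell by 0.58, 0.85 and 0.42 on the log2 scale, and Ppib, the ER cyclophilin, by 0.32. The partner Crtap lay at 1.11 ± 0.596 CPM in controls, too low to show a change. P4ha3, the remaining alpha subunit, rose by 0.16 (± 0.05 SE, edgeR adjusted p = 0.0299); it was not called by DESeq2, with no filter, or without control replicate 1, control replicate 2 or eIF3m replicate 3 (0.12, 0.16 and 0.15).

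Partners of the lysyl hydroxylases fell as well. Colgalt1, which adds galactose to hydroxylysine, went from 452 ± 2.96 to 242 ± 13.3 CPM (-0.90 ± 0.05 SE, edgeR adjusted p = 9.43e-10), and Fkbp10, an ER prolyl isomerase needed for telopeptide hydroxylation, from 460 ± 10.5 to 257 ± 7.71 CPM (-0.84 ± 0.04 SE, edgeR adjusted p = 7.96e-10). Tmem38b, an ER potassium channel, and Slc39a13, a zinc transporter of the early secretory pathway, fell by 0.40 and 0.68 on the log2 scale. Tmem38b lost its call with no scaling factors, DESeq2 and thinning, and without control replicate 1, control replicate 2 or eIF3m replicate 3 (-0.32, -0.37 and -0.37). Sparc, a matrix protein that binds collagen, fell from 3416 ± 46.3 to 1847 ± 66.3 CPM (-0.89 ± 0.02 SE, edgeR adjusted p = 7.65e-14), and Fkbp14, another ER isomerase, by 0.68. For export, Mia3, the receptor that loads procollagen into COPII carriers, fell by 0.47 and the coat subunit Sec24d by 0.19, while Klhl12, a ubiquitin ligase adaptor that enlarges those carriers, rose from 51.1 ± 3.52 to 75.8 ± 2.95 CPM (0.58 ± 0.06 SE, edgeR adjusted p = 4.07e-06). The call of Sec24d was lost with upper-quartile factors, no scaling factors and thinning (-0.12, -0.05 and -0.10), and without control replicate 3, eIF3m replicate 1 or eIF3m replicate 2 (-0.13, -0.16 and -0.18).

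Outside the cell, the remaining lysyl oxidases Loxl1, Loxl3 and Loxl4 fell by 0.22, 0.67 and 0.76 on the log2 scale; Loxl1 was not called with no scaling factors (-0.08, edgeR adjusted p = 0.128). Adamts2, which removes the amino-terminal propeptide, rose by 0.27 (± 0.07 SE, edgeR adjusted p = 0.00769) and was at 0.16 without eIF3m replicate 1, where it was not called (edgeR adjusted p = 0.119); nor was it called in thinned libraries (0.24, edgeR adjusted p = 0.0671). Its relative Adamts14 fell by 0.42, a call lost with DESeq2, upper-quartile factors, no scaling factors and the removal of any 1 library other than eIF3m replicate 2 (-0.44 to -0.38). Tll1, a proteinase related to Bmp1, was at -0.01 ± 0.13 SE (edgeR adjusted p = 0.984). The ascorbate transporter Slc23a2, which supplies the cofactor of both kinds of hydroxylase, fell by 0.38, and Atp7a, the copper transporter that loads lysyl oxidases, was at -0.0012 ± 0.10 SE (edgeR adjusted p = 0.996).

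**Figure D4:**
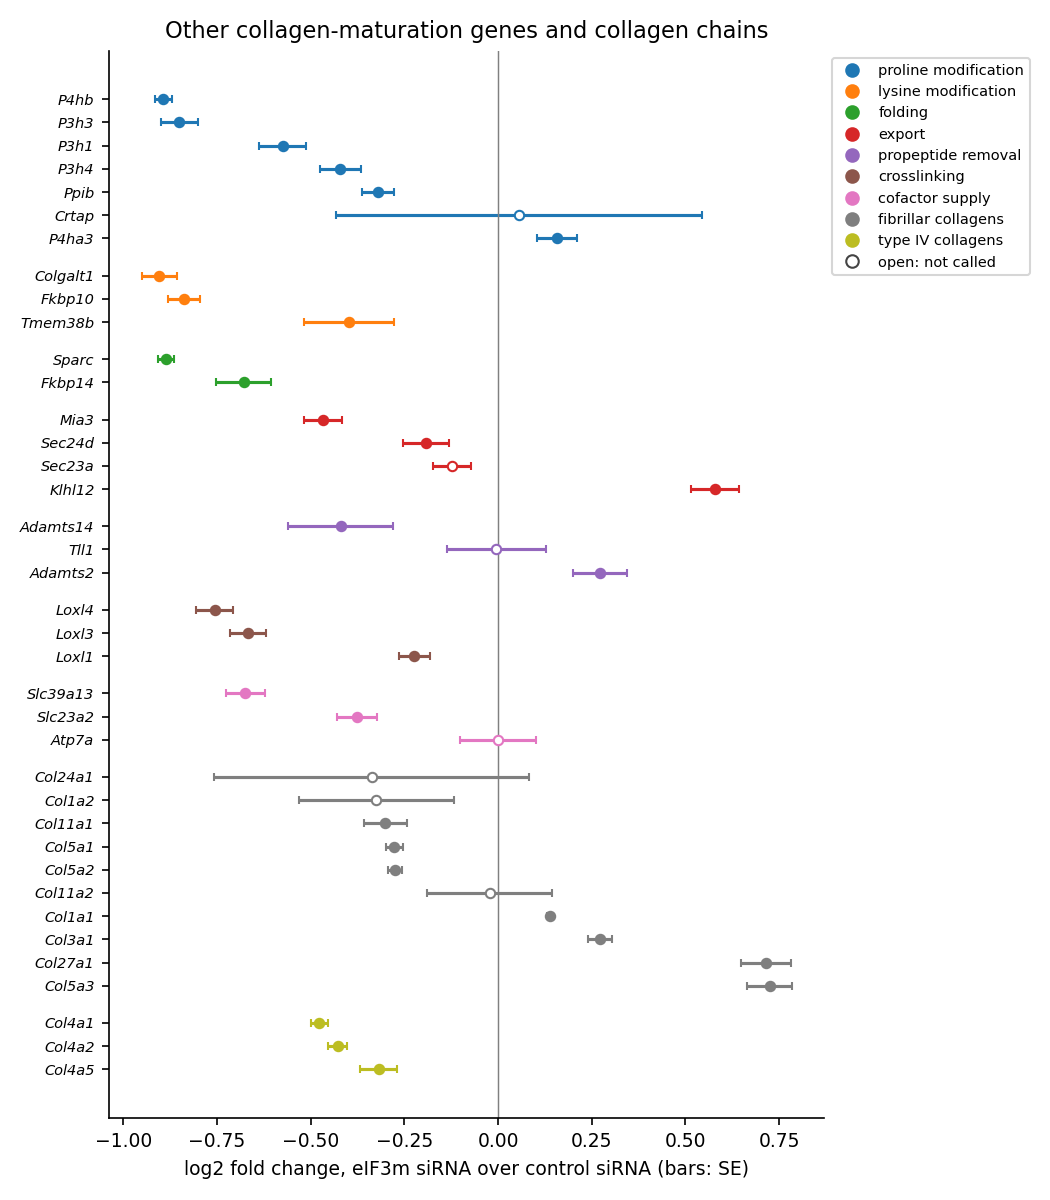
Log2 fold change, eIF3m siRNA over control siRNA, with SE bars, of 25 other collagen-maturation genes grouped by step, 10 fibrillar and 3 type IV collagen chains; open symbols were not called. Most maturation genes lie left of 0 (18 lower, 3 higher), whereas fibrillar chains lie on both sides (3 lower, 4 higher).

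Genes inducible by hypoxia, a class to which P4ha1, P4ha2, Plod2, Lox and Loxl2 are known to belong, went both ways: 3 rose, 4 fell and 10 were not called of 17 tested, with a median log2 fold change of 0.03. The 7 called of 17 stand near the 38.7% called over all genes. Adm, encoding adrenomedullin, rose by 0.78, the glycolytic regulator Pfkfb3 by 0.45 and Ddit4 by 0.43 on the log2 scale, while Hk2, a hexokinase, fell by 0.51, Bhlhe40 by 0.42, Vegfa by 0.16 and Ero1a, an ER oxidase, by 0.29. With no scaling factors 7 were higher and 2 lower, with upper-quartile factors 6 and 2, and without eIF3m replicate 1 again 3 and 4. Vegfa was not called with either of them. Ero1a was not called with either of them, with DESeq2, without control replicate 3 or without eIF3m replicate 3, where it was at -0.21 and -0.22. Among 8 genes inducible by TGF-beta, which also induces several of the 10, 2 rose and 5 fell. Over all genes tested, 17.4% were called higher and 21.2% lower. The median of the 8 was -0.38, beside 0.01 for all genes tested. Without eIF3m replicate 1 the counts were also 2 and 5. Ctgf fell by 1.05 on the log2 scale, Tgfb1i1 by 0.66 and Pmepa1 by 0.60. Skil, an inhibitor of the pathway, rose by 0.25, a call lost in thinned libraries (0.19, edgeR adjusted p = 0.0945), and Cdkn2b by 0.32 (edgeR adjusted p = 0.048), a call lost with DESeq2, with the replicate block, in thinned libraries and without control replicate 1, 2 or 3 or eIF3m replicate 2 or 3 (0.19 to 0.38).

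**Figure D5:**
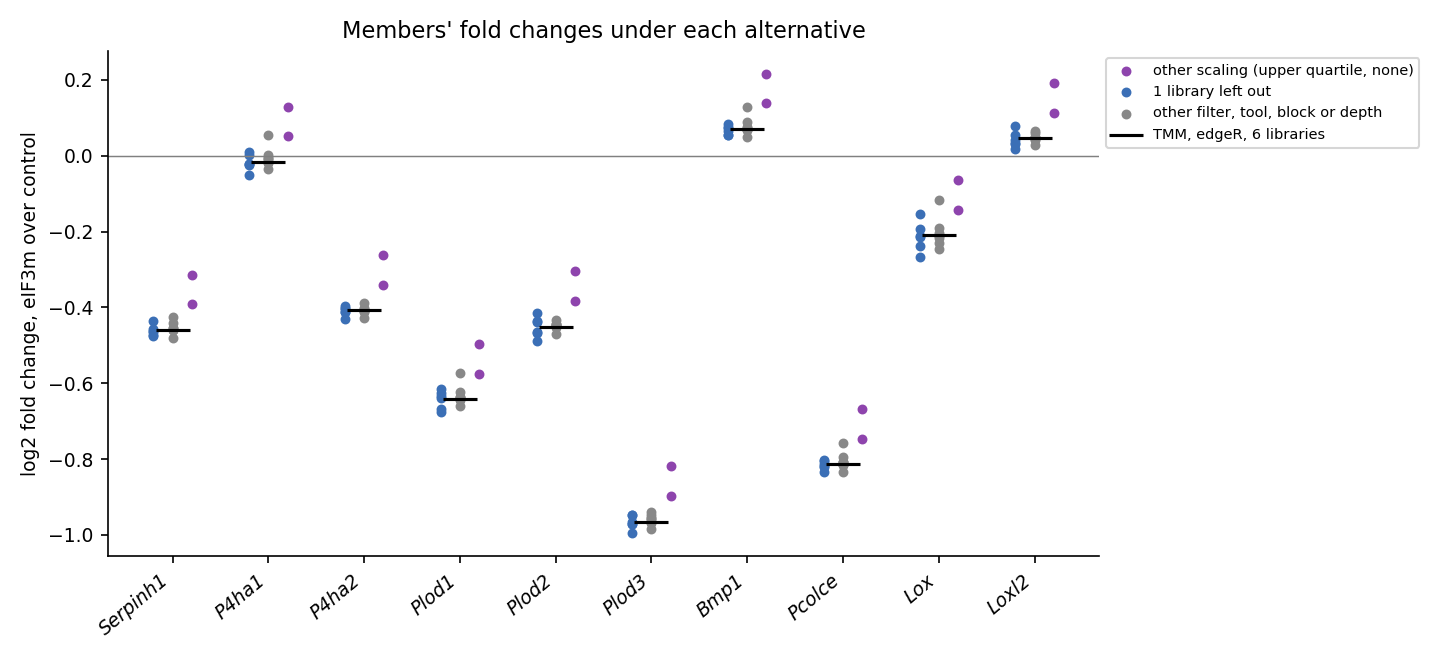
Log2 fold change of each of the 10 genes with TMM scaling, edgeR and 6 libraries (black bars), with 1 library left out (blue), with another filter, tool, replicate block or depth (grey) and with upper-quartile or no scaling factors (purple). Purple points are shifted upward from the black bars for every gene; Serpinh1, P4ha2, Plod1, Plod2, Plod3, Pcolce and Lox stay below 0 in every setting in which they were tested.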

How the data were processed

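RNA-seq counts per gene symbol were deposited by the authors for 6 rat libraries, 1 file each, as raw whole-number values. The submitters' processing notes list HISAT2 2.2.1, Trimmomatic 0.40 and featureCounts, besides limma and DESeq2, and build rn6. Annotation, strand and multi-mapping settings are not stated there, so overlapping or near-identical genes are uncertain. Rows whose symbol had turned into a date (27, holding 0.203% to 0.216% of counts) were left out. filterByExpr (minimum count 10, minimum total 15) kept 12724 genes. They were fitted in R 4.3.3 with edgeR 4.0.16 (TMM, quasi-likelihood F-test, two-sided, Benjamini-Hochberg over all genes). The fit was also run on simulated counts. Those held neither the composition difference between groups nor a library set apart like eIF3m replicate 1, so that run cannot judge the fit on these features. Intervals are 95% intervals of the fit. Ratios of counts were tested by exact permutation over libraries. Alternatives used limma 3.58.1, DESeq2 1.42.0, other scaling, filters, a replicate block, thinning and leaving out each library. For pairs of replicates, chi-square per degree of freedom was 1.78 to 8.69, where repeat reads of the same library would give about 1. This cannot tell separate cultures from repeat preparations of the same RNA.

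The genes and lists were chosen with earlier results of these data known. Genes named are Eif3m, the 10, Col1a1, Col1a2, Col3a1, Col5a1 and Col5a2, the 5 nearest to Serpinh1, up to 4 called genes per direction and list with the lowest p, and markers; others were named after their values were seen. A gene that the rule names is not reported here. Promoters are RefSeq windows of GRCr8. Exon lengths were not used here, so levels are not ranked between genes.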

Additional observations from a re-analysis of the deposited data

How the results depend on the processing

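Directions and calls of Serpinh1, P4ha2, Plod1, Plod2, Plod3 and Pcolce held under every alternative in which each was tested (17, or 16 for Serpinh1, which is itself among the 20 most abundant genes left out in 1 of them). P4ha1 turned to 0.13 with no scaling factors. Counts of members higher went from 0 to 1 with upper-quartile factors and to 3 with no scaling factors, where 4163 genes were higher and 1680 lower. Thinning to the smallest total left 3130 genes called, 1356 higher and 1774 lower, and moved the log2 ratio of P4ha1 to P4ha2 from 0.39 to 0.46. Thinning keeps fewer reads, so fewer differences can be called. With the replicate block 4755 genes were called and 7 members. Deviations of same-numbered libraries from their group means correlated at 0.030, -0.0054 and 0.0077, so no shared effect of replicate number was seen. These values cannot show whether the samples were paired when they were made. The block changed the call of Cdkn2b and of no other gene named in the text among those tested. Hypoxia-inducible genes higher and lower went from 3 and 4 to 6 and 2 with upper-quartile factors and to 7 and 2 with no scaling factors. TGF-beta-inducible genes higher went from 2 to 1 in 7 alternatives, the ones with DESeq2, the replicate block or thinning and those without control replicate 1, 2 or 3 or eIF3m replicate 2, and to 3 in 4, with DESeq2 size factors, upper-quartile factors, no scaling factors or the stricter filter; those lower went from 5 to 4 in 4 (upper-quartile factors, no scaling factors, thinning, without control replicate 3). Other collagen maturation genes lower ranged from 14 to 18 over the alternatives. No sample was tested as an outlier, since each group holds 3 libraries.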
